A study of Mus musculus with 28 samples.

Results

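Krt17, Msln, Pof1b, Ido2, Fetub, Ccdc141, Pla2g7, Apobec2, Fcgr2b and Tbx20 are 10 mouse genes whose mRNA was lower in embryonic stem (ES) cells given a DICER1 transgene, mutant or wild type, than in Dicer-/- ES cells given an eGFP vector. They were chosen by those measured differences, out of 19938 genes that the array platform names by 1 symbol, of which 13956 were tested. A gene was tested when its mean over all arrays reached 6.42 on the log2 scale, the 30th percentile of gene means, and all 10 genes passed. Because the falls against the eGFP vector chose the genes, those falls are given as a description with no test. The list is not the 10 largest falls. By size of fall in wild-type DICER1 cells Krt17 ranked 1, Msln 2, Pof1b 3, Ido2 4, Fetub 5, Ccdc141 7, Apobec2 10, Pla2g7 16, Fcgr2b 19 and Tbx20 64. By fall in the mutants together Pla2g7 ranked 1, Pof1b 2, Ccdc141 3, Msln 4 and Krt17 5. Ido2 ranked 7 there, Fcgr2b 8, Fetub 11, Apobec2 19 and Tbx20 199.

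The series measured mRNA on 28 Affymetrix Mouse Gene ST arrays in mouse ES cells collected in log-phase growth, to compare hotspot mutants of DICER1. Every transgene was carried by Dicer-/- ES cells. DICER1 D1709A (4 arrays), E1705K (3) and D1810Y (3) were in the vector pLD-puro-ENvA, and D1709N (2) and E1813Q (2) in pLD-puro-PGKnvA. Wild-type DICER1 had 4 arrays with the ENvA vector and 2 with the PGKnvA vector, and the eGFP vector, also ENvA, had 3. The parental lines without a transgene were Dicer-/- (3 arrays) and Dicer+/+ (2). Each genotype is named as 1 line, so the loss of Dicer and other differences between the parental lines cannot be told apart. Nothing in the labels says that replicates were separate cultures, and p-values then measure only the spread between these arrays.

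DICER1 cuts microRNAs (miRNAs) out of hairpin precursors. Its RNase IIIb domain, where the hotspot mutations lie, makes the cut that releases the strand on the upstream arm of the hairpin, and miRNAs in turn lower the stability and translation of mRNAs that they pair with. ES cells without Dicer still self-renew but lack most mature miRNAs. The genes described here are better known from differentiated tissues than from ES cells: epithelium and mesothelium (Krt17, Msln, Pof1b), liver (Fetub), heart (Tbx20), skeletal muscle (Apobec2) and immune cells (Fcgr2b, Pla2g7).

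The genes lie on 8 chromosomes of GRCm38.p6, with Msln, Pla2g7 and Apobec2 at separate places on chromosome 17. Promoter sequences from RefSeq (GRCm38.p6) matched 7 of the 10 by symbol, with 8 promoters because Fetub has a pair, and Krt17, Msln and Ido2 have no entry in the table used. Those of 4 genes are printed because they show how unlike the starts of genes with a shared pattern can be. Each line gives the 250 bases before the start, 5′ to 3′ on the strand of the gene, with capitals for matches on either strand to the motifs TATAAA, then CCAAT, then GGGCGG. The regions are chr16:22918132-22918381 (plus strand) for Fetub, chr17:48432729-48432978 (minus strand) for Apobec2, chr17:43568201-43568450 (plus strand) for Pla2g7 and chr9:24774304-24774553 (minus strand) for Tbx20.
Fetub: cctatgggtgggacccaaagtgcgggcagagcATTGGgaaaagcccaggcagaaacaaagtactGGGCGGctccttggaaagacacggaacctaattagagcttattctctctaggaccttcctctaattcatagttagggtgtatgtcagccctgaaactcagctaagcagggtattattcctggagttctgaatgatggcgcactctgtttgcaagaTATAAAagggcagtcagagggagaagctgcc
Apobec2: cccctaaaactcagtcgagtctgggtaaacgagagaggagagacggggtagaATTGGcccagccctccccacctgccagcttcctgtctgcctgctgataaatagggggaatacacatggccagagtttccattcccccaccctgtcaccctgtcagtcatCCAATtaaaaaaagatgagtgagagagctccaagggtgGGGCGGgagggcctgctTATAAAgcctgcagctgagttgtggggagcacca
Pla2g7: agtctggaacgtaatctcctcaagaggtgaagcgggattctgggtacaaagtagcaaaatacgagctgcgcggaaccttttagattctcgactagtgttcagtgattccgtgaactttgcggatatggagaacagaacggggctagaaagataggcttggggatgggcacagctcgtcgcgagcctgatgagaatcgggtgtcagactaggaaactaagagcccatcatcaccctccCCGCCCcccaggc
Tbx20: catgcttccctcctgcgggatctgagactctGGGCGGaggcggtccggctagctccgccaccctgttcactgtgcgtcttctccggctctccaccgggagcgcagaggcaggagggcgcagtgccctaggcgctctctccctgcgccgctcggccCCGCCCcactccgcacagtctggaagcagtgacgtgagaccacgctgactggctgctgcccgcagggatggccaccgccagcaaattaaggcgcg
Fetub and Apobec2 have TATAAA, the TATA box, at bases -31 and -34 from the start. The other 6 promoters of the list, the second of Fetub among them, have no match to those letters in a window from 250 bases before to 50 after the start, and the share with one was 13.62% of all 32851 promoters in the table. GGGCGG, the core of a GC box, occurred in 6 of the 8, against 35.66% of all promoters, and CCAAT in 2, against 37.41%. TGANTCA (7.81% of all promoters), CACGTG (7.15%) and GGTGTGA, the core of a T-box site (3.98%), matched in 0 of the 8 on either strand, and no match overlapped another. CpG counts in the window ranged widely, with 26 in Tbx20, 17 in Pla2g7, 10 and 5 in the Fetub pair, 7 in Ccdc141, 6 in Fcgr2b, 5 in Apobec2 and 4 in Pof1b. Their median of 6.5 lay beside a median of 7 over all promoters.

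Array medians lay between 7.14 and 7.27, and the ES cell markers were high on every array, among them Pou5f1 (12.33 to 12.93), Nanog (12.59 to 13.20) and Sox2 (11.93 to 12.78). Dicer1 itself read 9.27 ± 0.04 in the Dicer-/- line (SD, n = 3) and 10.68 ± 0.05 in the Dicer+/+ line (n = 2), and the means of the DICER1 transgene groups lay between 8.91 and 9.31. The labels do not give the species of the transgene, so transgene levels were not compared. The leukocyte markers Ptprc (5.18 to 5.57) and Adgre1 (4.67 to 5.28) were under the filter level on every array, Csf1r ranged from 5.89 to 6.51 around it, and the mean of 11 such markers ranged from 6.61 to 6.84 in mutants, 6.70 to 6.78 in wild-type DICER1, 6.68 to 6.78 in the eGFP vector, 6.71 to 6.79 in the Dicer-/- line and 6.603 to 6.71 in the Dicer+/+ line. Other markers of that list read higher, with group means of 10.68 to 12.09 for Laptm5 and 9.38 to 10.28 for Cd68. The Dicer-/- line minus the Dicer+/+ line was 0.98 for Laptm5, 0.73 for Cd68 and -0.61 for Cd79b. The mean of 12 fibroblast markers was 6.67 to 6.91 in mutants and 6.93 to 6.997 in wild-type DICER1, above 6.39 to 6.59 in the eGFP vector, 6.39 to 6.40 in the Dicer-/- line and 6.28 to 6.38 in the Dicer+/+ line. Col1a1, a defining fibroblast marker, read between 7.72 and 8.57. Its list thus moves with the transgene groups, opposite to the genes described here, and its part in the results was not tested.

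The deposited values obey exact relations across arrays. The arrays numbered 4 of D1709A and of wild-type DICER1 deviated from arrays 1 to 3 of their groups by amounts that sum to 0 within 1.33e-04 for every probe set, and the deviations of the first arrays of 5 groups likewise sum to 0 within 1.83e-04. The wild-type DICER1 means of the ENvA and PGKnvA vectors were equal within 7.5e-05. Spread within a group is therefore not wholly free, and the p-values below are approximate. Results that changed most without the arrays numbered 4 are also given without them, a setting that was not planned.

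On all 20 arrays with a DICER1 transgene, each of the 10 genes read lower than on all 6 arrays of cells without Dicer, the eGFP vector and the Dicer-/- line. This holds for 9.42% of tested genes, and since it follows the choice of the genes nothing is read from it. The median difference of the 10 genes from the eGFP vector was -2.63 in the mean of the 5 mutants and -2.88 in wild-type DICER1, where the median of all tested genes was 0.02 in both. Among all tested genes 23.8% were lower and 29.3% higher in mutants than in the eGFP vector, and 28.7% lower and 30.8% higher in wild-type DICER1. In bulk samples, fewer cells that express a gene and less mRNA per cell cannot be told apart.

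**Figure D1:**
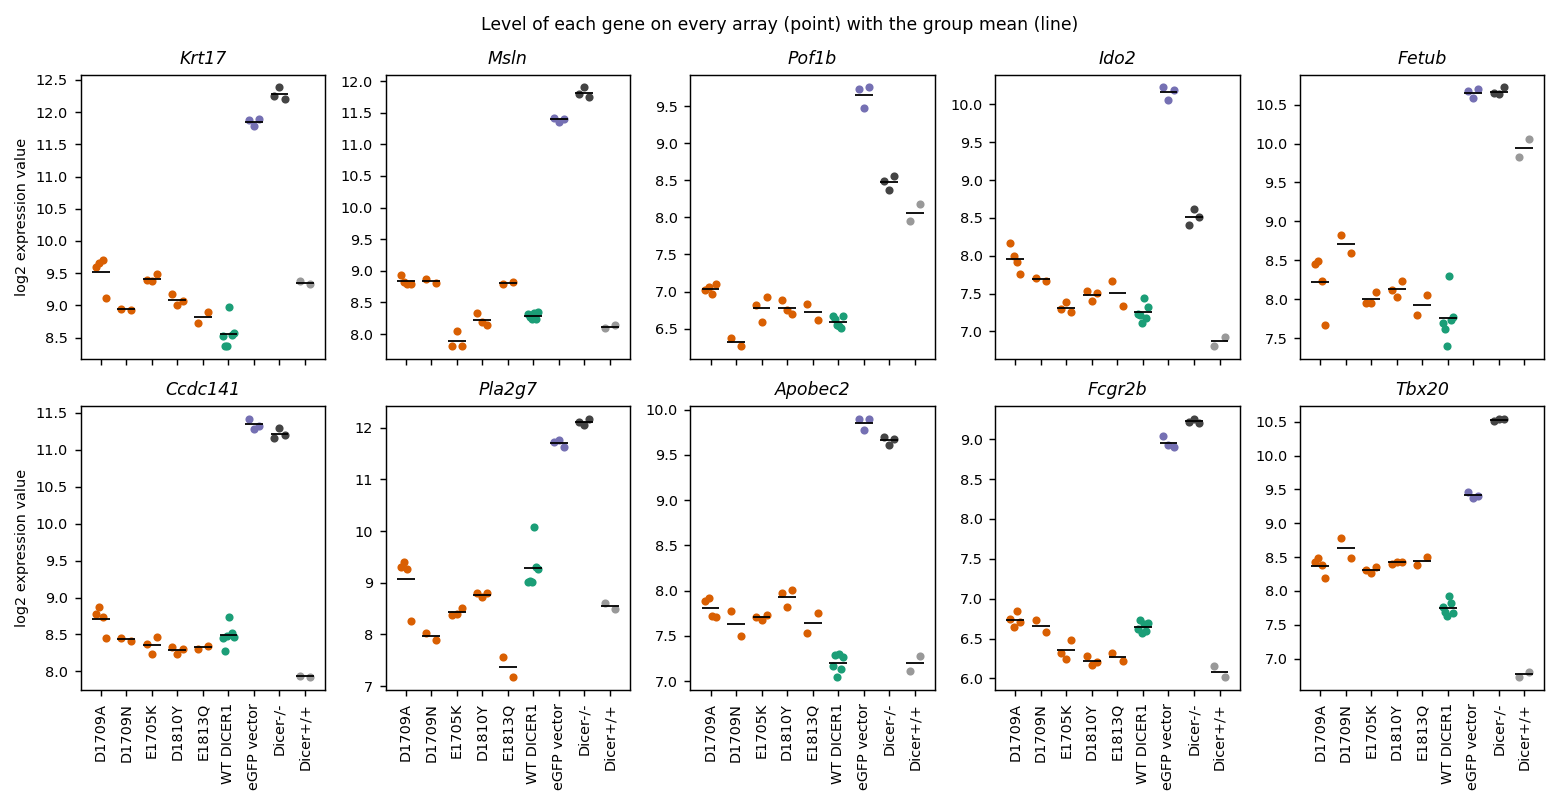
Level (log2 expression value) of the 10 genes on each of 28 arrays, by group, with mutants at the left, then wild-type DICER1, the eGFP vector, the Dicer-/- line and the Dicer+/+ line. Points are arrays and lines are group means. In each panel the 20 DICER1 transgene arrays lie below the 6 arrays without Dicer, and the place of the Dicer+/+ line differs between genes.

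Krt17 encodes a type I keratin filament protein of basal and stressed epithelium and of skin appendages. It read 9.60, 9.66, 9.71 and 9.11 on the D1709A arrays, 8.95 and 8.92 in D1709N, 9.39, 9.37 and 9.49 in E1705K, 9.17, 8.9998 and 9.06 in D1810Y, and 8.73 and 8.90 in E1813Q. Wild-type DICER1 arrays had a lowest value of 8.37, a median of 8.53 and a highest of 8.97. The eGFP vector read 11.88, 11.78 and 11.89, the Dicer-/- line 12.24, 12.38 and 12.21, and the Dicer+/+ line 9.37 and 9.32. Mutants were 6.49-fold and wild-type DICER1 9.79-fold below the eGFP vector. Wild-type DICER1 was the lowest group, its arrays overlapping only those of E1813Q and of D1709N, and D1709A and E1705K lay around the Dicer+/+ line.

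Msln encodes mesothelin, a surface glycoprotein of mesothelial cells. Its mutant arrays fell into separate levels, with 8.93, 8.82, 8.80 and 8.79 in D1709A, 8.87 and 8.81 in D1709N, and 8.79 and 8.82 in E1813Q, but 8.34, 8.20 and 8.14 in D1810Y and 7.81, 8.04 and 7.81 in E1705K. Wild-type DICER1 ran from 8.23 to 8.35 with a median of 8.30. In cells without Dicer it read 11.42, 11.36 and 11.41 with the eGFP vector and 11.79, 11.90 and 11.74 in the Dicer-/- line, and the Dicer+/+ line had 8.09 and 8.14. D1709A, D1709N and E1813Q overlapped one another above every wild-type DICER1 array, and E1705K lay below every other group.

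Pof1b encodes an actin-binding protein of epithelial junctions. It had 7.02, 7.07, 6.96 and 7.10 in D1709A, 6.37 and 6.27 in D1709N, 6.81, 6.58 and 6.92 in E1705K, 6.88, 6.75 and 6.70 in D1810Y, and 6.83 and 6.61 in E1813Q. Wild-type DICER1 arrays lay between 6.51 and 6.68 with a median of 6.58. The eGFP vector had 9.73, 9.47 and 9.75, the Dicer-/- line 8.49, 8.37 and 8.56, and the Dicer+/+ line 7.95 and 8.17. All transgene arrays were below the Dicer+/+ arrays, D1709N lay under the filter level of 6.42, and no background level was measured with which to bound such values.

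Ido2 encodes an indoleamine dioxygenase related to the enzyme that opens the kynurenine pathway of tryptophan breakdown. Its arrays read 8.16, 7.998, 7.92 and 7.77 in D1709A, 7.70 and 7.67 in D1709N, 7.29, 7.39 and 7.25 in E1705K, 7.53, 7.40 and 7.51 in D1810Y, and 7.67 and 7.34 in E1813Q. Wild-type DICER1 ran from 7.11 to 7.45, with a median of 7.23. Levels were 10.22, 10.06 and 10.19 with the eGFP vector, 8.40, 8.61 and 8.51 in the Dicer-/- line, and 6.81 and 6.93 in the Dicer+/+ line, which was the lowest group. Ido2 is thus a gene whose eGFP vector arrays stand above the parental Dicer-/- arrays.

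Pla2g7 encodes the secreted phospholipase that degrades platelet-activating factor and is carried on lipoproteins. Mutant arrays had 9.31, 9.41, 9.27 and 8.27 in D1709A, 8.03 and 7.89 in D1709N, 8.38, 8.39 and 8.52 in E1705K, 8.80, 8.72 and 8.79 in D1810Y, and 7.56 and 7.17 in E1813Q. In wild-type DICER1 the lowest value was 9.01, the median 9.14 and the highest 10.08. The eGFP vector read 11.72, 11.76 and 11.63, the Dicer-/- line 12.12, 12.05 and 12.18, and the Dicer+/+ line 8.61 and 8.49. Its lowest group was E1813Q, and D1709A and wild-type DICER1 were its highest transgene groups, as they were for Ccdc141. Without the arrays numbered 4, D1709A was 0.31 above wild-type DICER1 (adjusted p = 0.000144, limma), against a lower mean with them. Here 1 array of D1709A and 1 of wild-type DICER1, both numbered 4, stood away from the rest of their groups.

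Apobec2, a member of the cytidine deaminase family expressed in muscle, had 7.497 to 8.01 on the 14 mutant arrays with a median of 7.74, and 7.05 to 7.30 on wild-type DICER1 arrays with a median of 7.21. The eGFP vector read 9.90, 9.78 and 9.89, the Dicer-/- line 9.69, 9.61 and 9.68, and the Dicer+/+ line 7.11 and 7.28. Every mutant array was above every wild-type DICER1 array, and wild-type DICER1 overlapped the Dicer+/+ line.

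Fetub encodes fetuin-B, a liver-secreted protease inhibitor of the cystatin superfamily that protects oocytes from premature hardening of their coat. It ranged from 7.67 to 8.83 with a median of 8.11 in mutants and from 7.40 to 8.30 with a median of 7.71 in wild-type DICER1. The arrays without Dicer read 10.67, 10.58 and 10.70 with the eGFP vector and 10.64, 10.64 and 10.72 in the Dicer-/- line, which overlap. The Dicer+/+ line, at 9.83 and 10.05, lay closer to the cells without Dicer than to any transgene group.

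Fcgr2b encodes the inhibitory Fc receptor for immunoglobulin G, found on B cells and myeloid cells. Mutant arrays ran from 6.16 to 6.85 with a median of 6.40, and wild-type DICER1 arrays from 6.57 to 6.73 with a median of 6.65. It read 9.05, 8.92 and 8.90 with the eGFP vector, 9.21, 9.26 and 9.20 in the Dicer-/- line and 6.16 and 6.02 in the Dicer+/+ line. The means of E1705K, D1810Y, E1813Q and the Dicer+/+ line were under the filter level, so folds against them are only approximate. Krt17 and Fcgr2b belong to families of similar sequence, and cross-hybridisation of their probes was not tested.

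Ccdc141 encodes a coiled-coil protein studied in neuronal migration, and its gene neighbours Ttn, the gene of titin. The probe set used read 8.23 to 8.87 with a median of 8.39 in mutants and 8.28 to 8.74 with a median of 8.47 in wild-type DICER1, so these groups overlapped widely. The eGFP vector had 11.42, 11.29 and 11.33, the Dicer-/- line 11.15, 11.30 and 11.20, and the Dicer+/+ line 7.94 and 7.92. It is the only gene of the list with several probe sets, and all 5 were lower in every transgene group than in the cells without Dicer. Wild-type DICER1 minus eGFP vector was -2.20 to -3.16 over the probe sets, mutants minus eGFP vector -2.42 to -3.09, and the Dicer-/- line minus the Dicer+/+ line 2.66 to 3.29. Mutants minus wild-type DICER1 was -0.22, -0.07, 0.04, 0.07 and 0.08, with a sign that differed between probe sets, whereas D1810Y was lower than wild-type DICER1 in all 5 (-0.13 to -0.63). The sign also differed between probe sets for D1709A minus wild-type DICER1 (-0.04 to 0.40) and for D1709N (-0.05 to 0.37).

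**Figure D2:**
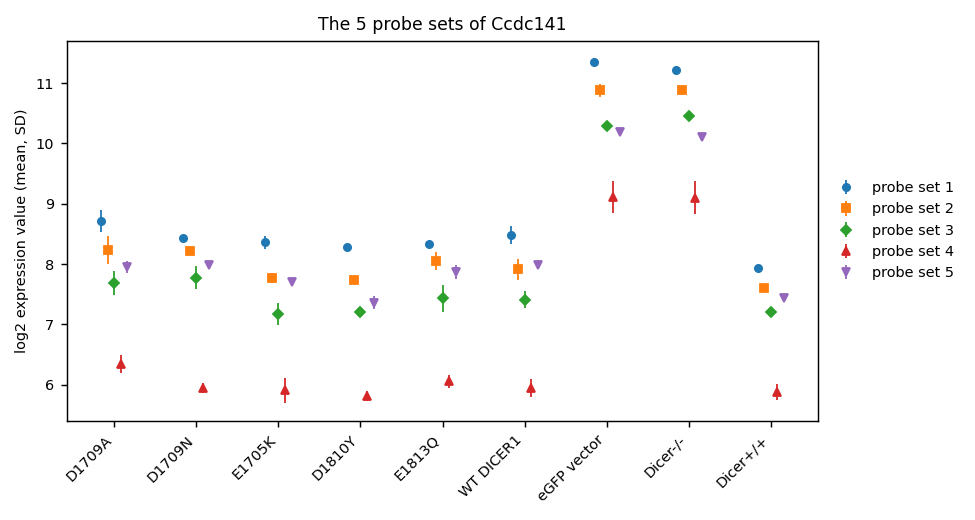
Mean log2 expression value of each of the 5 probe sets of Ccdc141 in the 9 groups, with standard deviations as bars. All 5 probe sets are high with the eGFP vector and in the Dicer-/- line and low in the other groups, at different absolute levels.

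Tbx20 encodes a T-box transcription factor of the developing heart. Its mutant arrays read 8.43, 8.49, 8.38 and 8.20 in D1709A, 8.78 and 8.49 in D1709N, 8.31, 8.27 and 8.35 in E1705K, 8.40, 8.43 and 8.43 in D1810Y, and 8.38 and 8.504 in E1813Q. Wild-type DICER1 had a lowest value of 7.63, a median of 7.72 and a highest of 7.93. The eGFP vector read 9.47, 9.38 and 9.40, the Dicer-/- line 10.51, 10.54 and 10.54, and the Dicer+/+ line 6.73 and 6.81. Tbx20 formed a staircase in which the Dicer+/+ line, wild-type DICER1, the mutants, the eGFP vector and the Dicer-/- line did not overlap at any step. Among the mutants, E1705K was lowest and D1709N highest with no shared values, and neighbours in the order of means overlapped. Its fall was the smallest of the list, 1.97-fold in mutants and 3.18-fold in wild-type DICER1, each against the eGFP vector.

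The parental lines show whether the genes differ between the Dicer-/- and Dicer+/+ lines without any transgene. The arrays of these lines did not choose the genes. The genes were, however, chosen for high values in Dicer-/- ES cells with the eGFP vector, which favours high values in the Dicer-/- line. The Dicer+/+ line has only 2 arrays. Tests were made with limma across all tested genes, with p-values adjusted over them by the Benjamini-Hochberg method, and the threshold for a call was an adjusted p of 0.05. The higher levels of Tbx20 (3.76), Msln (3.69), Pla2g7 (3.56) and Ccdc141 (3.29) in the Dicer-/- line than in the Dicer+/+ line were already known when the list was made and are given as a log2 description. The other 6 genes were all higher in the Dicer-/- line: Fcgr2b by 3.14 (SE 0.0809, adjusted p = 2.2e-20), Krt17 by 2.93 (SE 0.14, adjusted p = 2.97e-15), Apobec2 by 2.46 (SE 0.0934, adjusted p = 3.48e-17) and Ido2 by 1.64 (SE 0.107, adjusted p = 1.25e-12). Fetub (0.73, SE 0.19, adjusted p = 0.00187) and Pof1b (0.41, SE 0.102, adjusted p = 0.00126) rose by less, and the Pof1b call was lost without the first Dicer+/+ array (0.30, adjusted p = 0.0541). Of all tested genes 30.7% were higher and 27.2% lower in the Dicer-/- line. By size of rise the genes ran from rank 3 for Tbx20 to rank 1172 for Fetub and 2449 for Pof1b, so the list joins genes near the top of this comparison with genes far down it.

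The eGFP vector and the parental Dicer-/- line both lack Dicer and differ by the vector and by culture history. The eGFP arrays also chose the genes, which favours high eGFP values. Of the 10 genes, 2 were higher with the eGFP vector, where 20.2% of all tested genes were, and 4 were lower, where 27.4% were. Ido2 was 1.65 higher (SE 0.0955, adjusted p = 4.27e-13) and Pof1b 1.18 higher (SE 0.0915, adjusted p = 8.64e-11, limma). Tbx20 was lower by 1.11 on the log2 scale (-1.11, SE 0.0786, adjusted p = 1.58e-11), with Krt17 (-0.43, adjusted p = 0.0061), Msln (-0.42, adjusted p = 4e-06) and Fcgr2b (-0.26, adjusted p = 0.00369) lower as well. Differences of Apobec2 (0.20, adjusted p = 0.0552), Ccdc141 (0.13, adjusted p = 0.261), Fetub (-0.02, adjusted p = 0.947) and Pla2g7 (-0.41, adjusted p = 0.146) did not pass, although Pla2g7 and Apobec2 passed with the same values when the arrays numbered 4 were left out (adjusted p = 2.99e-06 and 0.0338). Apobec2 also passed without any 1 of 8 arrays, among them the second eGFP array (0.24, adjusted p = 0.0414), and Pla2g7 without either array numbered 4. The eGFP vector minus Dicer+/+ difference of Ido2 was 3.29 where the Dicer-/- line minus Dicer+/+ difference was 1.64.

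Wild-type DICER1 was set against the Dicer+/+ line to see how close the transgene brings each gene to cells with their own Dicer. The wild-type DICER1 arrays chose the genes, which favours low values there. In wild-type DICER1, 3 genes were lower than in the Dicer+/+ line, where 24.8% of tested genes were: Fetub (-2.18, SE 0.18, adjusted p = 1.83e-10), Pof1b (-1.47, SE 0.097, adjusted p = 2.95e-12) and Krt17 (-0.79, SE 0.133, adjusted p = 1.8e-05). Another 6 were higher, where 28.1% were: Tbx20 (0.98, adjusted p = 3.1e-10), Pla2g7 (0.73, adjusted p = 0.0119), Fcgr2b (0.56, adjusted p = 9.46e-07), Ccdc141 (0.56, adjusted p = 2.51e-05), Ido2 (0.38, adjusted p = 0.00253) and Msln (0.18, adjusted p = 0.0278). Apobec2 differed by 0.00 (SE 0.0886, adjusted p = 0.991, limma). Ccdc141 was 0.34 with its probe sets averaged (adjusted p = 0.00384), and single probe sets ran from 0.06 to 0.56. Pla2g7 was 0.47 without wild-type DICER1 array 4 (adjusted p = 0.031) and did not pass without the second Dicer+/+ array (0.68, adjusted p = 0.0889), Ido2 did not without the first (0.32, adjusted p = 0.0542), and Msln did not without either Dicer+/+ array or without wild-type DICER1 array 1 or 4 (adjusted p 0.0532 to 0.171). The mutants lay on the same side of the Dicer+/+ line as wild-type DICER1 for Pof1b and Fetub, where every transgene array was lower, and for Ido2, Ccdc141, Fcgr2b and Tbx20, where every one was higher.

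**Figure D3:**
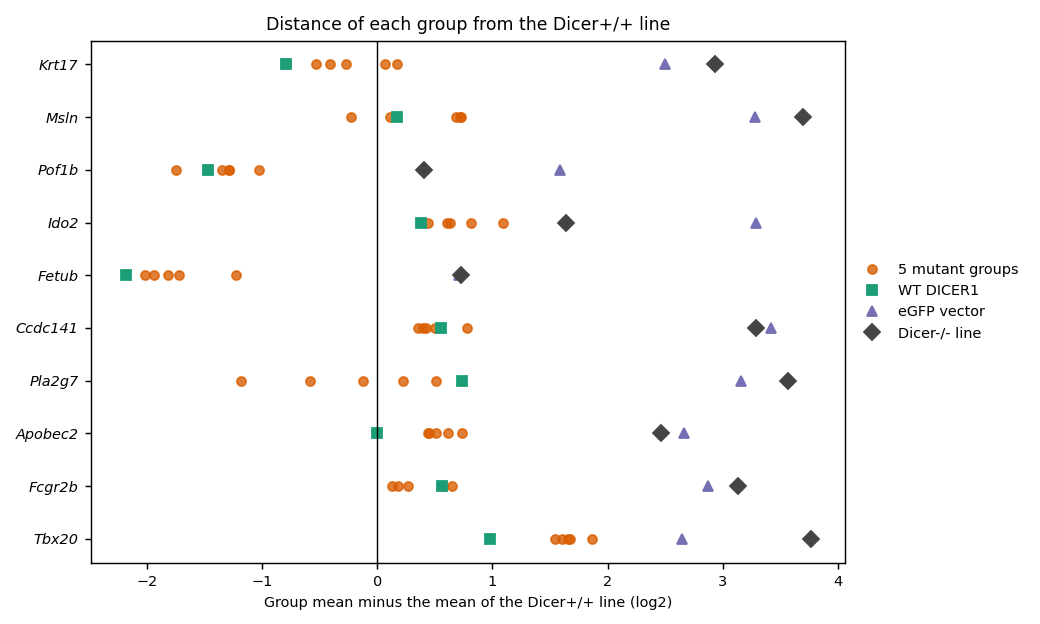
Group mean minus the mean of the Dicer+/+ line (log2) for each gene, with the 5 mutants as circles, wild-type DICER1 as squares, the eGFP vector as triangles and the Dicer-/- line as diamonds. The vertical line at 0 is the Dicer+/+ line, and wild-type DICER1 ranges from -2.18 for Fetub to 0.98 for Tbx20.

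The mutants were then compared with wild-type DICER1, all 5 mutants together, each weighted equally. Of the 10 genes, 7 were higher in mutants, where 32.3% of tested genes were, and 2 were lower, where 27.7% were. The median difference was 0.28, beside 0.01 over all tested genes. These arrays also took part in the choice of the genes, which required low values in both groups. Krt17, Msln, Pof1b, Ido2 and Fetub held ranks 1 to 5 by fall in wild-type DICER1, which favours mutants above wild type. Pla2g7, Ccdc141 and Fcgr2b ranked higher by fall in mutants, which favours the reverse. The counts, the median and the single-mutant comparisons below thus rest partly on values that chose the genes, and nothing about the list is read from them. Tbx20 was 0.69 higher (SE 0.0478, adjusted p = 5.84e-12, limma), Krt17 0.59 (SE 0.0762, adjusted p = 2.52e-07), Apobec2 0.55 (SE 0.0508, adjusted p = 1.05e-09), Fetub 0.44 (SE 0.103, adjusted p = 0.000636) and Ido2 0.34 (SE 0.0581, adjusted p = 1.92e-05). Smaller rises were those of Msln (0.23, adjusted p = 1.11e-05) and Pof1b (0.13, adjusted p = 0.0411). Pla2g7 fell by 0.97 on the log2 scale (SE 0.138, adjusted p = 1.26e-06) and Fcgr2b by 0.20 (SE 0.044, adjusted p = 0.000304), while Ccdc141 did not pass (-0.07, SE 0.0552, adjusted p = 0.318). Tbx20 and Apobec2 were the 2 genes with every mutant array above every wild-type DICER1 array, as 8.97% of tested genes were, and 0 had every mutant array below, as 8.05% were.

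The rises of Msln, Pof1b and Fetub and the size of the fall of Pla2g7 depended on the arrays used. With the PGKnvA arrays left out Msln was 0.03 higher (adjusted p = 0.676) and Pof1b 0.27 (adjusted p = 0.00128), and Msln was high in D1709N and E1813Q, which have only that vector. The Pof1b call was lost without any 1 of 9 arrays (adjusted p 0.0509 to 0.199), for example without the third wild-type DICER1 array (0.12, adjusted p = 0.0809), and when array medians were set equal (0.10, adjusted p = 0.154). The exact relations set 4 kinds of array apart: first arrays of 5 groups, arrays numbered 4, PGKnvA arrays and the rest. With the arrays of a group that share a kind averaged into 1 replicate, Fetub did not pass (0.38, adjusted p = 0.112). Pla2g7 was -0.53 without the PGKnvA arrays (adjusted p = 0.0139), against -0.97 with them.

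By mutant, D1709A had the highest mean of the 5 for 6 of the 10 genes, D1709N for Msln, Fetub and Tbx20, and D1810Y for Apobec2. In D1709A 8 genes were higher than in wild-type DICER1 and 0 lower, with 45.8% of tested genes called in either direction, and its largest differences were Krt17 (0.96, SE 0.108, adjusted p = 9.34e-08) and Ido2 (0.71, SE 0.0827, adjusted p = 1.57e-07). In D1709N, 5 were higher and 1 lower, with 40% of tested genes called, led by Fetub (0.96, adjusted p = 0.000679) and Tbx20 (0.88, adjusted p = 9.04e-08). E1705K had 3 higher and 3 lower, with 48% called, and D1810Y 4 higher and 3 lower, with 53.7% called. E1813Q had 3 higher and 2 lower, with 40.6% called. Tbx20 (0.56 to 0.88) and Apobec2 (0.44 to 0.74) were higher in each of the 5 mutants by limma, with adjusted p at most 0.00133, although Apobec2 in D1709N did not pass without the first D1709N array (0.30, adjusted p = 0.0552).

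Other genes separated the mutants. Msln was higher in D1709N (0.55, adjusted p = 2.89e-06), D1709A (0.54, adjusted p = 1.32e-08) and E1813Q (0.51, adjusted p = 7.74e-06), lower in E1705K (-0.40, adjusted p = 3.21e-06) and did not pass in D1810Y (-0.06, adjusted p = 0.375, limma). Fcgr2b was lower in D1810Y (-0.43, adjusted p = 7.72e-06), E1813Q (-0.38, adjusted p = 0.0012) and E1705K (-0.30, adjusted p = 0.000767), the mutants changed at another residue than D1709A and D1709N, and did not pass in D1709A (0.09, adjusted p = 0.259) or D1709N (0.01, adjusted p = 0.955). Pla2g7 was lower in E1813Q (-1.92, SE 0.277, adjusted p = 5.16e-06), D1709N (-1.32, SE 0.277, adjusted p = 0.000459), E1705K (-0.86, SE 0.212, adjusted p = 0.00158) and D1810Y (-0.51, SE 0.212, adjusted p = 0.0439). Ido2 (0.23, adjusted p = 0.0335) and Ccdc141 (-0.20, adjusted p = 0.0452) passed narrowly in D1810Y, and leaving out single arrays ended these calls too (Ido2 without D1810Y array 1 or 3 or wild-type DICER1 array 1, 2 or 3, adjusted p 0.0617 to 0.113, and Ccdc141 without any 1 of 19 arrays, adjusted p up to 0.188). With kinds of array averaged, Pla2g7 did not pass in D1709N (-1.32, adjusted p = 0.128), E1705K (-0.96, adjusted p = 0.0624) or D1810Y (-0.60, adjusted p = 0.355). Fetub then did not pass in D1709N (0.96, adjusted p = 0.118) or D1709A (0.33, adjusted p = 0.284), nor Ido2 in D1709N (0.435, adjusted p = 0.124) or D1810Y (0.20, adjusted p = 0.347). Ccdc141 did not in D1709A (0.155, adjusted p = 0.29) or D1810Y (-0.24, adjusted p = 0.26), nor Krt17 in D1810Y (0.46, adjusted p = 0.172). In D1810Y the call of Pla2g7 was lost without any 1 of 12 arrays, and without wild-type DICER1 array 4 the value was -0.25 (adjusted p = 0.204). Differences among the 5 mutants were called for 8 of the 10 genes by an F test in limma, where 43.5% of tested genes were, with Msln (adjusted p = 1.45e-10), Fcgr2b (adjusted p = 4.39e-06) and Ido2 (adjusted p = 4.16e-05) the smallest. Apobec2 (adjusted p = 0.123) and Tbx20 (adjusted p = 0.168) did not pass, which does not show that the mutants are alike. With no vector term in the model both passed this F test (adjusted p = 0.0188 and 0.0244). Apobec2 also passed it without both arrays numbered 4 (adjusted p = 0.0449). D1709A and D1709N change the same residue but differ in vector as well, ENvA and PGKnvA, and the model takes the vector effect from wild-type DICER1 arrays, where it is 0 within 7.5e-05. That equality is among the exact relations of the deposited values and is not a measured vector effect. The vector term therefore does not remove a vector difference between these mutants.

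**Figure D4:**
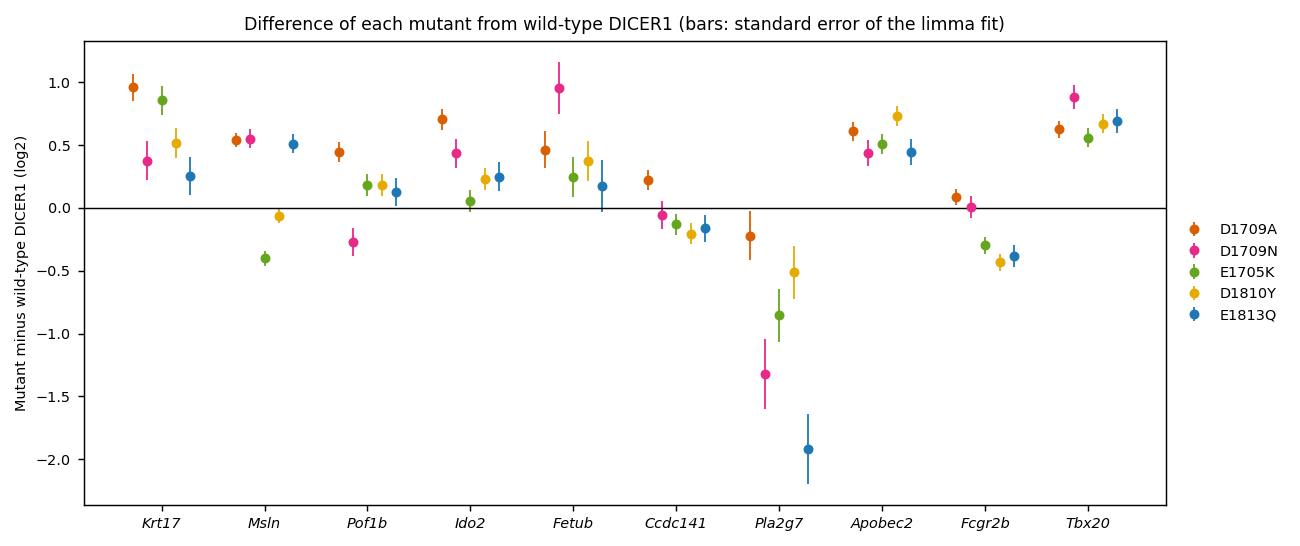
Each mutant minus wild-type DICER1 (log2) for the 10 genes, with the standard error of the limma fit as bars. Krt17, Ido2, Fetub, Apobec2 and Tbx20 lie above 0 in all 5 mutants, and Msln, Pof1b, Ccdc141 and Fcgr2b lie on both sides. Pla2g7 lies below 0 with a range from -0.22 in D1709A to -1.92 in E1813Q.

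The arrays numbered 4 bear on these comparisons more for some genes than for others. On the D1709A array 4, Pla2g7 deviated from arrays 1 to 3 by -1.06, Fetub by -0.72 and Krt17 by -0.55, and wild-type DICER1 array 4 deviated by 1.06, 0.72 and 0.55 for the same genes. The median absolute deviation was 0.25 over the 10 genes and 0.13 over all tested genes. Without both arrays numbered 4, Pla2g7 in D1709A was higher than in wild-type DICER1 (0.31, adjusted p = 0.000144), in place of -0.22 (adjusted p = 0.381) with them. The mutants' difference of Pla2g7 was then -0.75 (adjusted p = 6.24e-16), Krt17 0.70, Fetub 0.59, Ccdc141 0.00 (adjusted p = 0.975) and Pof1b 0.12 (adjusted p = 0.0822). Fetub in D1709A was 0.83 without these arrays (adjusted p = 5.1e-10) and 0.46 with them (adjusted p = 0.0119), and Ccdc141 in D1709A 0.39 (adjusted p = 1e-06) and 0.22 (adjusted p = 0.0229). The call of Fetub in D1709A was also lost without D1709A array 1 or 2 or wild-type DICER1 array 3 (adjusted p 0.0529 to 0.0665), and that of Ccdc141 without D1709A array 1, 2 or 3 or wild-type DICER1 array 1 or 2 (adjusted p 0.0512 to 0.124). Further limma calls against wild-type DICER1 passed without both arrays numbered 4. These were Krt17 in D1709N (0.38, adjusted p = 2.06e-05) and E1813Q (0.26, adjusted p = 0.00178), and Pof1b in D1709N (-0.27, adjusted p = 0.0427). Fetub passed in E1705K (0.43, adjusted p = 4.21e-05) and D1810Y (0.55, adjusted p = 6.94e-07), and Ido2 in E1813Q (0.25, adjusted p = 0.033). The differences in D1709N and E1813Q were the same with and without these arrays. There the estimate of spread, which all groups share, changed and not the values. Ccdc141 in D1810Y no longer passed (-0.12, adjusted p = 0.0745). Within sets of arrays, mutants minus wild-type DICER1 for Pla2g7 was -0.17 on arrays 1 to 3, -1.81 on array 4 and -1.62 with the PGKnvA vector. For Tbx20 it was 0.70, 0.27 and 0.79 in the same sets, for Apobec2 0.66, 0.41 and 0.44, for Krt17 0.96, 0.14 and 0.32, and for Fetub 0.60, -0.62 and 0.56, so the sign of Fetub turned on array 4. Array 4 holds D1709A as its only mutant. On arrays 1 to 3, D1709A minus wild-type DICER1 was 0.31 for Pla2g7, 0.74 for Tbx20 and 0.68 for Apobec2. It was 1.23 for Krt17 and 0.83 for Fetub, so within D1709A these values also differ between the sets. The PGKnvA set holds other mutants, D1709N and E1813Q, and there set and mutant cannot be told apart.

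**Figure D5:**
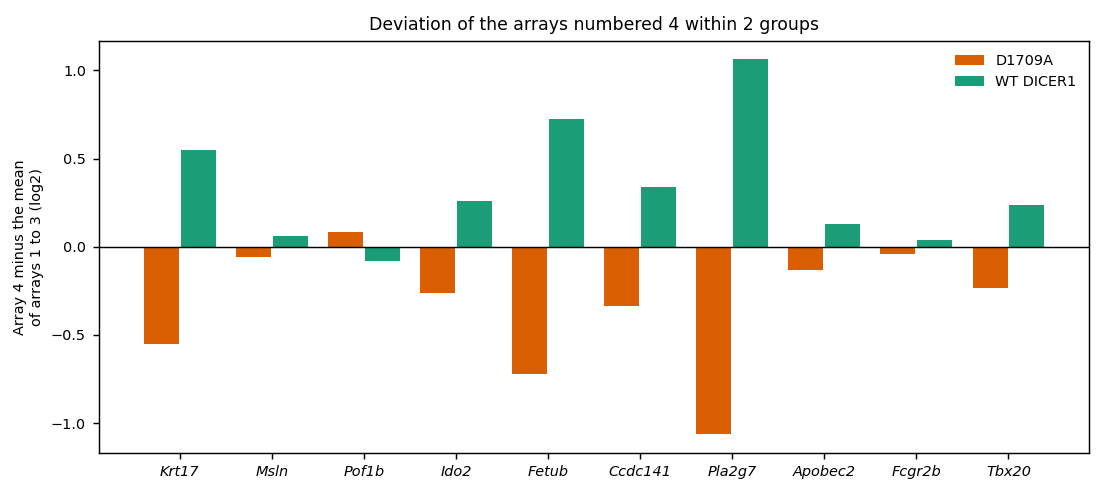
Deviation (log2) of array 4 from the mean of arrays 1 to 3 in D1709A and in wild-type DICER1, 1 pair of bars for each gene. The bars of a pair mirror each other, and Pla2g7 has the longest, -1.06 and 1.06.

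Over the 9 group means the genes followed each other to different degrees. Pearson's r between pairs of the 10 genes ranged from 0.41 (Pof1b and Tbx20) to 0.99 (Ccdc141 and Fcgr2b), with a median of 0.85 over 45 pairs that share the same arrays. The likeness of each gene to the mean scaled profile of the list was highest for Ccdc141 (0.99) and lowest for Tbx20 (0.81). Outside the list, the tested genes with the profile most like that mean were P4htm (r = 0.99), a transmembrane prolyl hydroxylase, the predicted gene Gm10522 (0.99), Birc3 (0.99), an inhibitor of apoptosis, and Htra1 (0.99), a secreted serine protease. Irak2, a kinase of interleukin-1 signalling, Adh7, an alcohol dehydrogenase, and Gpx7, a peroxidase of the endoplasmic reticulum, each had r = 0.99, and Notum, which inactivates Wnt proteins, 0.98. A like profile says nothing of size, since wild-type DICER1 minus eGFP vector was -0.29 for P4htm but -2.57 for Adh7 and -2.56 for Gm10522.

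Relatives and pathway partners of the 10 genes were read from lists that leave out the genes themselves. Counts are of called genes, with p-values from limma, beside 28.7% lower and 30.8% higher of all tested genes in wild-type DICER1 against the eGFP vector, and 23.8% lower and 29.3% higher in mutants against it. In the Dicer-/- against the Dicer+/+ line 30.7% were higher and 27.2% lower, and in mutants against wild-type DICER1 32.3% were higher and 27.7% lower. Several lists lie near these shares. The lists were not compared with each other by a test. Among 7 tested genes of mesothelium, 4 were lower and 1 higher in wild-type DICER1 than in the eGFP vector, with Lrrn4 (-1.33, adjusted p = 2.49e-10) and Efemp1, a matrix glycoprotein (-1.12, adjusted p = 3.06e-11), the largest, and all 7 were higher in the Dicer-/- than in the Dicer+/+ line. Against the eGFP vector mutants had 3 of the 7 lower and 1 higher, with Lrrn4 at -0.38 (adjusted p = 0.00487) and Efemp1 at -0.09 (adjusted p = 0.354). In mutants against wild-type DICER1, 4 of the 7 were higher and 0 lower, Efemp1 by 1.02 and Lrrn4 by 0.95. Of 11 tested junction genes, 6 were lower and 3 higher in wild-type DICER1, among them the claudins Cldn3 (-0.99, adjusted p = 8e-12) and Cldn7 (-0.86, adjusted p = 3.87e-11), and 8 were higher and 2 lower in the Dicer-/- line. In mutants against the eGFP vector 4 were lower and 3 higher, with a median of 0.07 over the list, beside -0.34 in wild-type DICER1. The keratin and epithelial list of 10 tested genes split into 3 higher and 3 lower in wild-type DICER1, with Krt18 (0.67, adjusted p = 4.42e-10), a keratin of simple epithelium, opposite to Krt17, and Krt19 (-0.42, adjusted p = 1.01e-06) in the same direction. Mutants had 3 higher and 3 lower of these as well.

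The shares over all tested genes, 28.7% lower and 30.8% higher, apply here too, and values are of wild-type DICER1 against the eGFP vector. Of 10 tested genes of platelet-activating factor metabolism, 4 were higher and 4 lower in wild-type DICER1, and the pancreatic-type phospholipase Pla2g1b was 2.69 higher (adjusted p = 5.76e-25), opposite to Pla2g7, while the intracellular acetylhydrolase subunit Pafah1b2 was lower (-0.82, adjusted p = 3.36e-12). Of 6 tested genes of tryptophan breakdown 2 were higher, Qprt (0.95, adjusted p = 9.15e-09) and Kyat1 (0.67, adjusted p = 2.18e-08), and 1 lower, the receptor Ahr (-0.36, adjusted p = 8.28e-06). Among 9 tested T-box genes 2 were higher, Eomes (1.33, adjusted p = 8e-10) and Tbx3 (0.66, adjusted p = 1.6e-12), and 2 lower, Tbx4 (-0.93, adjusted p = 1.71e-08) among them, and of 10 tested genes of cardiac mesoderm 4 were higher and 1 lower. The deaminase list, of cytidine deaminases and the adenosine deaminases Adar and Adarb1, had 2 higher and 3 lower of 5. Apobec3, an antiviral relative of Apobec2, was lower (-0.49, adjusted p = 3.23e-07), and Adarb1 was higher (0.35, adjusted p = 0.000216). Of 3 tested fetuin and cystatin genes Ahsg, which encodes fetuin-A, was lower (-0.81, adjusted p = 2.77e-07) and 0 were higher. The list of Fc receptors and partners had 0 lower and 1 higher of 4 tested. The 1 called was not a receptor but the phosphatase Inpp5d that acts downstream of Fcgr2b (0.41, adjusted p = 2.53e-06). In the list of the titin region and Z-disc 4 of 7 were lower and 1 higher, with Sestd1, the next gene beside Ccdc141 (-0.57, adjusted p = 5.12e-07), and Plekha3, beyond Ttn (-0.56, adjusted p = 4.53e-10), the largest. Of 4 tested leukocyte markers 2 were lower, Laptm5 (-0.86, adjusted p = 2.27e-14) and Cd68 (-0.68, adjusted p = 1.09e-11), and 1 higher, Cd79b (0.70, adjusted p = 3.35e-08), and of 8 tested fibroblast markers 5 were higher, led by Pdgfrb (1.301, adjusted p = 5.01e-12), and 0 lower. Of 12 pluripotency genes 3 were higher and 5 lower, the largest being Klf2 (-1.38, adjusted p = 8.86e-13). In mutants against the eGFP vector, the list of platelet-activating factor had 4 higher and 2 lower, tryptophan breakdown 2 and 1, and T-box genes 1 and 3. Cardiac mesoderm had 4 and 1, and the deaminase list 2 and 2. The fetuin list had 0 higher and 3 lower there, the list of Fc receptors and partners 0 and 1, and the titin region 0 and 3. Leukocyte markers had 1 and 2, fibroblast markers 3 and 0, and pluripotency genes 3 and 5.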

How the data were processed

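Total RNA (Qiagen miRNeasy) was labelled with Ambion WT reagents, 1 sample to an array, per the labels' protocols. The table deposited by the authors holds log2 values for each probe set, made with RMA (background correction, normalisation and probe summary) and Partek 6.6 per the submitters' processing notes. The sources used here give neither their settings nor a step that would leave exact relations between arrays.

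Of 35556 probe sets, 21789 had 1 gene symbol in the platform annotation, 1621 several and 12146 none. Genes with several probe sets took the one with the highest mean over all 28 arrays. All arrays entered 1 limma 3.58.1 model (R 4.3.3) with 9 group means, a PGKnvA vector effect, a mean-variance trend and 18 residual degrees of freedom, and p-values were adjusted over 13956 genes. The exact relations leave fewer free residuals than that. The fit was tested on simulated data. Figures used Python 3.11.15 and matplotlib 3.10.9.

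The genes and the 14 lists were chosen with earlier results of these data known. Named besides the 10 genes and Dicer1 were up to 3 called genes of each list with the largest change of wild-type DICER1 against the eGFP vector, and the 8 genes most like the mean profile. Defining markers of the cell types were named for their levels. Alternatives changed the filter, variance trend, probe set rule, scaling, vector term, arrays with the PGKnvA vector, replicate block and array sets, and left out single arrays. The number of arrays limits the precision.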

Additional observations from a re-analysis of the deposited data

Results flagged for a closer look

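Single arrays of D1709A and wild-type DICER1 stood away from their group. Pla2g7 on D1709A array 4 lay apart by 0.877 of the range of its group (Dixon's ratio of the gap to the range), beyond the critical value for 4 arrays. On wild-type DICER1 array 4 the ratio was 0.72 for Pla2g7 and 0.662 for Krt17, both beyond the critical value for 6 arrays. These are 3 of 20 such tests on the 10 genes, of which chance passes about 1 in 20, and the deviations of both arrays mirror each other exactly.

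Differences from wild-type DICER1 that themselves differed among the 5 mutants, by limma's F test adjusted over all tested genes, were those of Msln (adjusted p = 1.45e-10), Fcgr2b (4.39e-06), Ido2 (4.16e-05), Pof1b (0.00112), Ccdc141 (0.00191), Pla2g7 (0.00321), Krt17 (0.00653) and Fetub (0.0276). The Fetub call was lost without either D1709N array or without the first E1813Q array (adjusted p 0.0505 to 0.183), and with the PGKnvA arrays left out (0.591), where Pla2g7 did not pass either (0.0978). With the replicate number as a block and the PGKnvA arrays left out, Krt17 (0.0676), Pof1b (0.0564), Fetub (0.685) and Pla2g7 (0.183) did not pass, and with kinds of array averaged Krt17 (0.547), Ccdc141 (0.263), Fetub (0.564) and Pla2g7 (0.456) did not.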

How the results depend on the processing

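Of 360 values of single genes of the list under 10 alternatives, in the comparisons other than single mutants and differences among mutants, 344 kept their direction and their side of the threshold, 10 lost the call and 6 gained it. Averaging the arrays of a group that share a kind (first arrays of 5 groups, arrays numbered 4, PGKnvA arrays, the rest) into 1 replicate leaves 7 residual degrees of freedom. Krt17 between the eGFP vector and the Dicer-/- line (-0.42, adjusted p = 0.256, limma) and Pla2g7 between wild-type DICER1 and the Dicer+/+ line (0.82, adjusted p = 0.0833) then did not pass. This setting gave 4 genes of the list called among the mutants (8 in the model as described), 3 in D1709N (6) and 3 in D1810Y (7) against wild-type DICER1. Over all tested genes it called 1263 among the mutants (6074), 3944 between the eGFP vector and the Dicer-/- line (6645), 4377 between mutants and the eGFP vector (7407), 2845 in D1709N (5576), 4439 in D1810Y (7501) and 2922 in E1813Q (5661). With the PGKnvA arrays left out 3971 genes were called among the mutants. Leaving out single arrays gave 4 to 8 genes of the list in D1810Y. Deviations of same-numbered arrays gave 45 correlations from -0.41 to 0.68 (median -0.07), of which 15 were over 0.1. All 3 pairs were over 0.1 for E1705K with D1810Y (0.47, 0.68 and 0.21) and for E1705K with the eGFP vector (0.29, 0.66 and 0.32), but for no group with wild-type DICER1. The labels give no pairing, and the exact relations bear on these correlations, so they do not settle it. With the replicate number as a block and the PGKnvA arrays left out, 4 genes of the list were called among the mutants, 4 in D1810Y, 7 in D1709A and 8 for the mutants together, and 2927 of all tested genes among the mutants.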
